A study of Mus musculus with 444 samples.

Results

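Single cells of the mouse mammary epithelium were examined for 10 genes that have been reported as markers of mammary stem or progenitor cells: Cd55, Aldh1a3, Axl, Lrp1, Procr, Cd34, Tspan8, Lgr5, Bcl11b and Prom1. The 10 genes were taken as a named list, found through their gene identifiers among the 25136 genes kept for analysis, and all 10 were present. The cells were labelled as total epithelium of the inbred mouse strain FVB/NJ and fell into 2 groups, 221 cells labelled Puberty and 223 cells labelled Adult. The animals were female and untreated, about 5 weeks old at puberty and 10 weeks old as adults (the headers of the pubertal files read 4wk), and glands were pooled, 6 pubertal or 4 adult mice per sort. Erythroid, endothelial and blood cells had been gated out with antibodies to Ter119, CD31 and CD45. The suspensions were also stained for CD24, by which the study defined epithelium in its other sorts, and the methods do not say whether the cells used here were gated on it. Each cell was captured alone on the Fluidigm C1, a microfluidic device with 1 chamber per cell. No label ties a cell to an animal, a sort or a capture run, so each stage is 1 sample here and no difference between the stages or between kinds of cells was tested.

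The mammary duct has an outer layer of basal, contractile cells and an inner layer of luminal cells, and the luminal layer holds secretory progenitors and mature, hormone-sensing cells. Stem and progenitor markers of this tissue are of several kinds: proteins anchored in or spanning the membrane, an enzyme and a transcription factor. Several of them are also used to mark cells of other tissues. Cd34, for example, is carried by blood progenitors, endothelium and many fibroblasts, and Axl and Lrp1 are widespread in mesenchymal cells.

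Cells with at least 100000 read pairs on the genes kept and at least 1500 genes detected were retained, 171 pubertal and 152 adult cells, or 323 of 444. The retained cells held from 100883 to 1354380 read pairs. Each was thinned by random draw to 100000 read pairs, so that 1 read pair equals 10 CPM (a count scaled to one library total), and a cell is called positive for a gene if at least 1 of these read pairs fell on it. At this depth the median cell had 2789 genes detected in puberty and 2662 in the adult. A run of adult cells, numbered 48 to 190 in their titles, stood apart: Rn7sk, a small nuclear RNA gene, had reads in 108 of its 109 retained cells and in 7 of the other 43. The median cell inside this run had 2888 genes and outside it 2193. The main results between the stages are given for both sets of adult cells, partner genes for all adult cells only, and the part of this split in them was not tested.

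The retained cells were sorted into classes by 8 fixed lists of 10 marker genes, none of which holds any of the 10 genes followed. A marker counted at 50 CPM or more, and a cell took the class of the list with the most markers if there were at least 3 and the lead over the next list was at least 2. This gave 130 basal-marker cells (45 pubertal, 85 adult), 30 luminal progenitor-marker cells (16 and 14), 91 mature luminal-marker cells (69 and 22) and 11 fibroblast-marker cells (7 and 4). Another 4 cells fell to the endothelial, pericyte, immune and Schwann lists, 1 to each, and 57 were not classed. The label of the cells as epithelium held for most of them. Epcam, an epithelial adhesion protein, was positive in 125 of 130 basal-marker cells and in all cells of both luminal classes, but in 6 of the 11 fibroblast-marker cells. Those 11 cells had a median of 8 of the 10 fibroblast markers, were all positive for Vim and were all negative for Krt5. Of the 266 classed cells, 51 had only the smallest number of markers or the smallest lead allowed.

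A pair of the proteins guard cells against complement or clotting: Cd55, decay-accelerating factor, speeds the decay of complement convertases, and Procr is the endothelial receptor for protein C. Cd55 (gene 13136) lies on chromosome 1 of mm10, 130429798 to 130465009, on the minus strand. Procr (gene 19124) lies on chromosome 2, 155751125 to 155755478. Cd34 (gene 12490), a sialomucin, lies on chromosome 1, 194938821 to 194961292. Axl (gene 26362), a receptor tyrosine kinase for Gas6, and Aldh1a3 (gene 56847), which makes retinoic acid, lie on chromosome 7, 25756500 to 25788924 and 66390892 to 66427477. Chromosome 10 carries Lrp1 (gene 16971; 127538157 to 127621148), a large endocytic receptor, the tetraspanin Tspan8 (gene 216350; 115816817 to 115849893) and Lgr5 (gene 14160; 115450314 to 115587780), a receptor for R-spondins that strengthens Wnt signalling. Bcl11b (gene 58208), a zinc finger transcription factor, lies on chromosome 12, 107910403 to 108004145, and Prom1 (gene 19126), a pentaspan protein of membrane protrusions, on chromosome 5, 43993621 to 44102047.

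Counts of these genes are over exons, and reads from a gene and an overlapping antisense transcript cannot be told apart because the use of strand was not stated. The share of exonic bases that overlap another gene was at most 5.91%, for Prom1, and was 2.10% for Cd55, 2.03% for Cd34 and 0.235% for Tspan8. The remaining genes had no such overlap. Cd55 has a related neighbour, Cd55b, and 9.39% of the 75-base stretches of its main transcript occur in Cd55b as well. Cd55b itself held 2 thinned read pairs in 2 pubertal cells and 6 in 4 adult cells.

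Upstream sequences are shown for Cd55, Cd34, Procr and Axl, because they recur among the pairs found together in the same cells. Each is the 250 bases before the transcription start in the RefSeq promoter table of GRCm38.p6, the assembly of mm10, read 5′ to 3′ on the strand of the gene. The start used for Cd55 lies 2265 bases inside the outer end of the gene, that of Procr 92 bases and that of Axl 191 bases inside it. Capitals mark matches, on either strand, to any of 5 promoter motifs: the CCAAT box (CCAAT), the GC box (GGGCGG), the AP-1 site (TGANTCA), an E box (CAGGTG) and the TATA box (TATAAA). No match overlapped another.
Cd55, chr1:130462745-130462994, minus strand: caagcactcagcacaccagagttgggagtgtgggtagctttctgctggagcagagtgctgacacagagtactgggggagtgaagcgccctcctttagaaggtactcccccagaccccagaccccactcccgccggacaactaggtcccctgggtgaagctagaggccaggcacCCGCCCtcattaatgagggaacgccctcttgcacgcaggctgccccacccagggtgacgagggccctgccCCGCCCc
Cd34, chr1:194938571-194938820, plus strand: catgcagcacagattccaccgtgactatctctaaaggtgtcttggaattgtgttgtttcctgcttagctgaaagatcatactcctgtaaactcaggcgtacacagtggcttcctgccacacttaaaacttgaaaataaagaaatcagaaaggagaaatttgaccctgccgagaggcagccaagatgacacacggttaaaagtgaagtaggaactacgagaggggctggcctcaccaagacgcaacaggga
Procr, chr2:155750967-155751216, plus strand: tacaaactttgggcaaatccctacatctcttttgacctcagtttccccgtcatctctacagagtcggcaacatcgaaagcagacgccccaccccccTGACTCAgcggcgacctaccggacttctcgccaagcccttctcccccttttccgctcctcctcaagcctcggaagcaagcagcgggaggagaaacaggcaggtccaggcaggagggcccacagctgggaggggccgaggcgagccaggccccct
Axl, chr7:25788734-25788983, minus strand: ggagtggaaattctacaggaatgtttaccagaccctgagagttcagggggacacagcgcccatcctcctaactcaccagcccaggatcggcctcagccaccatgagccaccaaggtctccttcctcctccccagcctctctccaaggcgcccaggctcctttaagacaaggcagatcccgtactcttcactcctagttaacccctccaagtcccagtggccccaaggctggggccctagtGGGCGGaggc
The Cd55 window held the GC box at 2 places, the Axl window at 1, and the Procr window an AP-1 site, whereas the Cd34 window held none of the 5 motifs. Of 32851 windows of this length in the table, 32.7% held the GC box, 33.8% the CCAAT box, 6.75% the AP-1 site, 17.2% the E box and 12.4% the TATA box. The windows of Cd55, Procr and Axl were 64%, 61.6% and 60% G or C, and that of Cd34 46.4%. The motif matches describe these letters only.

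**Figure D1:**
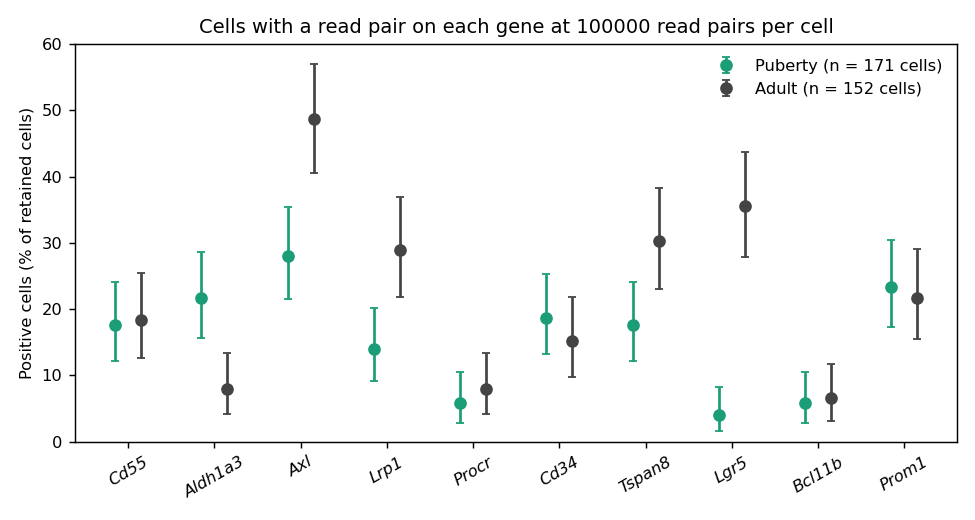
Share of retained cells positive for each gene (% of cells, y axis) in 171 pubertal cells (green) and 152 adult cells (grey), at 100000 read pairs per cell. Bars are exact 95% binomial intervals, which cover counting error only; Lgr5 shows the widest gap, 4.09% against 35.5%.

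Per length, Cd55, Cd34 and Tspan8 were the most abundant of the 10 transcripts at both stages and Bcl11b the least. In RPKM (CPM divided by the length in kilobases), the pubertal stage level was 48.3 for Cd55, 41.9 for Cd34, 37.7 for Tspan8, 25.0 for Axl, 16.1 for Aldh1a3, 11.8 for Prom1, 2.96 for Procr, 1.67 for Lrp1, 1.38 for Lgr5 and 0.384 for Bcl11b. In the adult the order was Tspan8 with 68.7, Cd34 with 57.4, Cd55 with 42.6 and Axl with 18.8, then Procr, Lgr5 and Prom1 with 12.4, 12.3 and 12.1, Aldh1a3 with 10.7, Lrp1 with 1.51 and Bcl11b with 0.764. Neighbours such as Procr, Lgr5 and Prom1 in the adult cannot be ordered beyond counting error. The levels include the 11 fibroblast-marker cells. Cd55 averaged 1802 CPM in them, against 312 CPM in luminal progenitor-marker cells, 34.3 CPM in mature luminal-marker and 13.9 CPM in basal-marker cells. Cd34 averaged 2198 CPM in them and 25.4 CPM in basal-marker cells, so the order need not hold for epithelial cells alone. A single cell often carried much of a level, and its share of the stage's read pairs reached 68.1% for Aldh1a3, 59.9% for Prom1 and 66.3% for Bcl11b in the adult and 68.5% for Lgr5 in puberty. Shares of positive cells are therefore given before levels.

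Cd55 was about equally frequent at both stages. It was positive in 30 of 171 pubertal cells (17.5%, exact 95% binomial interval 12.2 to 24.1%) and in 28 of 152 adult cells (18.4%, 12.6 to 25.5%). Among positive cells it ranged from 10 to 6030 CPM in puberty with a median of 165 CPM, and from 10 to 5100 CPM in the adult with a median of 95 CPM. The stage levels were 122 CPM (exact Poisson interval 117 to 127) and 108 CPM (103 to 113). These intervals, like all those below, cover counting error only, since read copies of 1 molecule are not separated and animals are not known. The highest cell held 28.9% of the pubertal and 31.1% of the adult Cd55 read pairs. The adult share was 16.5% inside the Rn7sk run and 23.3% outside.

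Lgr5 differed most between the stages. It was positive in 7 pubertal cells (4.09%, 1.66 to 8.25%) and in 54 adult cells (35.5%, 27.9 to 43.7%). Pubertal cells gave a level of 6.49 CPM (5.34 to 7.82) and adult cells one of 58.1 CPM (54.3 to 62.1), so that the log2 ratio of puberty over adult, with 1 CPM added to both sides, was −2.98. In puberty 1 cell, at 760 CPM, held most of the reads, and the median of the positive cells was 10 CPM, against 40 CPM in the adult. Adult cells outside the Rn7sk run were positive in 6 of 43 cases (14.0%) and those inside it in 48 of 109 (44.0%).

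Axl, Lrp1 and Tspan8 were also found in more of the adult cells. Pubertal cells were positive for Axl in 28.1% of cases (21.5 to 35.4%) and adult cells in 48.7% (40.5 to 56.9%). Lrp1 was positive in 14.0% (9.20 to 20.2%) and 28.9% (21.9 to 36.8%), and Tspan8 in 17.5% (12.2 to 24.1%) and 30.3% (23.1 to 38.2%). Levels did not follow these shares for Axl and Lrp1: Axl stood at 127 CPM in puberty, of which 1 cell at 8700 CPM held 40.0%, and at 95.5 CPM in the adult, and Lrp1 at 24.9 and 22.4 CPM. For Axl and Tspan8 the higher adult share was seen inside the run. Outside it 25.6% of adult cells were positive for Axl and 14.0% for Tspan8, against 57.8% and 36.7% inside. Lrp1 was positive in 23.3% outside and 31.2% inside. When 10 thinned read pairs were asked for, the shares were 12.9% and 19.7% for Axl, 3.51% and 4.61% for Lrp1, and 8.19% and 10.5% for Tspan8.

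Aldh1a3 went the other way, with 37 positive pubertal cells (21.6%, 15.7 to 28.6%) and 12 positive adult cells (7.89%, 4.15 to 13.4%). Its levels were 54.8 CPM and 36.3 CPM, a log2 ratio of 0.58. It was 1.85 once the top cell of each stage was dropped, −0.08 with the stricter cell filter of 200000 read pairs and 2500 genes, 0.28 against adult cells inside the run and 1.88 against those outside. The adult share was 6.42% inside the run and 11.6% outside. Cd34, Prom1, Procr and Bcl11b had shares whose intervals overlapped widely. Cd34 was positive in 18.7% and 15.1% of pubertal and adult cells, Prom1 in 23.4% and 21.7%, Procr in 5.85% and 7.89%, and Bcl11b in 5.85% and 6.58%. Inside and outside the run the adult shares were 13.8% and 18.6% for Cd34, 19.3% and 27.9% for Prom1, and 9.17% and 4.65% for Procr. The 10 adult cells positive for Bcl11b all lay inside the run.

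By stage levels, 9 of the 10 genes reached 10 CPM in 1 stage and could be compared; Bcl11b did not. None was at least 2-fold higher in puberty, where 22.3% of the 9780 genes compared were, and 2 were at least 2-fold higher in the adult, Lgr5 and Procr, where 15.6% of all genes were. The Procr level was 4.44 CPM for pubertal and 18.6 CPM for adult cells (log2 ratio −1.85). The difference rested on few cells: 1 adult fibroblast-marker cell at 1230 CPM held 43.5% of the adult read pairs. The log2 ratio was −0.99 with a prior of 10 CPM and −0.55 against adult cells outside the run. Without the highest of those cells it turned to 1.03, at 4.44 CPM in puberty and 1.67 CPM in these adult cells. Procr reached 10 CPM in neither stage once the 15 cells of non-epithelial classes were left out. The median log2 ratio was 0.11 over all genes compared and −0.03 over the 9 genes.

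Within the Rn7sk run and outside it the levels of several genes parted in opposite directions. The log2 ratio of puberty over adult for Prom1 was −0.03 against all adult cells, 2.65 against cells inside the run and −1.68 against those outside. That for Cd34 was −0.45, 1.15 and −1.88, and that for Cd55 0.18, 1.20 and −1.01. Single cells decided several of the values outside the run. A mature luminal-marker cell held 66.6% of the Prom1 read pairs there, and without it the ratio was −0.16. A fibroblast-marker cell held 47.9% of those of Cd55, and without it the ratio was −0.11. For Cd34 the ratio was −1.28 without the highest cell, another fibroblast-marker cell. Lgr5 kept its direction in both sets, at −3.15 inside and −2.41 outside, and at −1.42 outside without the highest cell, which held 52.1% of the read pairs. In all of these ratios without a highest cell only the adult side lost it, and the pubertal level kept all cells. The sets also differed in their cells: the run held 64.2% basal-marker and 7.34% mature luminal-marker cells, and the rest of the adult cells 34.9% and 32.6%. Fibroblast-marker cells made up 1 of 109 cells inside and 3 of 43 outside.

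**Figure D2:**
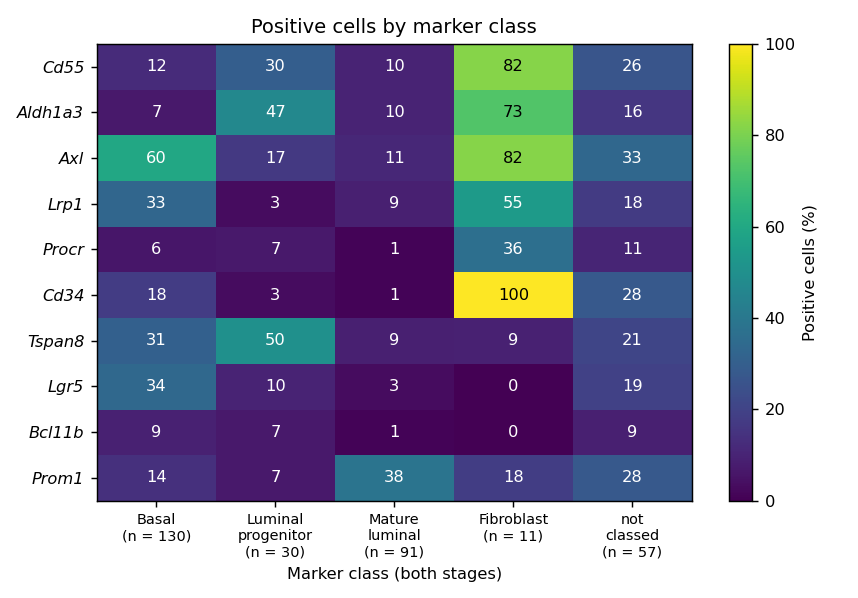
Share of positive cells (%, colour and number) for each gene (rows) in 5 marker classes (columns, both stages together, number of cells in brackets). Cd34 was positive in all 11 fibroblast-marker cells, Lgr5 in 33.8% of basal-marker cells, Prom1 in 38.5% of mature luminal-marker cells.

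The genes were next set against the lineage markers, to ask in which kind of cell each was found. Lgr5, Axl and Lrp1 were most frequent in basal-marker cells among the epithelial classes. Of the 61 cells positive for Lgr5, 44 had basal markers, and Lgr5 was positive in 33.8% of basal-marker cells (25.8 to 42.7%), in 3 of 30 luminal progenitor-marker cells, in 3 of 91 mature luminal-marker cells and in 0 of 11 fibroblast-marker cells, a count of 0 that allows a share of up to 27.3% (limits given for a count of 0 are 3 cells of the total, here and below). In puberty alone Lgr5 was positive in 4 of 45 basal-marker cells (8.89%) and in 2 of 16 luminal progenitor-marker cells (12.5%). Inside the Rn7sk run it was positive in 3 of 8 mature luminal-marker and 34 of 70 basal-marker cells. The pooled shares thus mix stage and run with class. Axl was positive in 78 of 130 basal-marker cells (60.0%, 51.0 to 68.5%), against 16.7% of luminal progenitor-marker and 11.0% of mature luminal-marker cells. Lrp1 was positive in 33.1% (25.1 to 41.9%), 3.33% and 8.79% of these classes. With classes set by keratins alone, most basal-marker cells fell among those with both basal and luminal keratins, where 36.8% were positive for Lgr5 and 61.0% for Axl, while 13.0% and 39.1% of the 23 cells with basal keratins only were.

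Aldh1a3, Tspan8 and Cd55 were, among epithelial classes, most frequent in luminal progenitor-marker cells. Aldh1a3 was positive in 14 of 30 of them (46.7%, 28.3 to 65.7%) and in 6.92% of basal-marker and 9.89% of mature luminal-marker cells. Tspan8 was positive in 15 of 30 (50.0%, 31.3 to 68.7%), in 30.8% of basal-marker and in 8.79% of mature luminal-marker cells. Cd55 was positive in 9 of 30 (30.0%, 14.7 to 49.4%), with a mean of 312 CPM, in 12.3% of basal-marker cells with a mean of 13.9 CPM and in 9.89% of mature luminal-marker cells with a mean of 34.3 CPM. Prom1 was, among epithelial classes, most frequent in mature luminal-marker cells, positive in 35 of 91 (38.5%, 28.4 to 49.2%) with a mean of 150 CPM. It was positive in 13.8% of basal-marker and 6.67% of luminal progenitor-marker cells. Inside the Rn7sk run, however, 1 of 8 mature luminal-marker and 11 of 70 basal-marker cells were positive for Prom1. Outside it the counts were 9 of 14 and 2 of 15. Bcl11b was positive in 12 of 130 basal-marker cells (9.23%), 2 of 30 luminal progenitor-marker cells (6.67%) and 1 of 91 mature luminal-marker cells (1.10%). In puberty alone these counts were 4 of 45, 2 of 16 and 1 of 69.

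Of the classes described, the one with the highest share for Cd34, Cd55, Axl, Aldh1a3, Lrp1 and Procr was the smallest, the 11 fibroblast-marker cells. Cd34 was positive in 11 of 11, Cd55 and Axl in 9, Aldh1a3 in 8, Lrp1 in 6 and Procr in 4. Cd34 averaged 2198 CPM there and 25.4 CPM in basal-marker cells, and Cd55 averaged 1802 CPM. In the 7 pubertal cells the Cd55 read pairs among the 100000 of each cell were 34, 15, 603, 497, 99, 53 and 0, and in the 4 adult cells 7, 0, 164 and 510. In the same order Cd34 gave 161, 182, 60, 9, 54, 459 and 73 in puberty and 143, 625, 380 and 272 in the adult. The highest Cd55 cell of each stage, at 6030 and 5100 CPM, was a fibroblast-marker cell. Tspan8 was positive in 1 of these 11 cells, Prom1 in 2, and Lgr5 and Bcl11b in none.

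Epithelial transcripts varied among these cells. Krt8 was positive in 8 of the 11, Krt18 in 5 and Krt14 in 5. One pubertal cell had 577 Krt18, 141 Krt8 and 131 Epcam read pairs of 100000 and 5 mature luminal markers, and another had 84, 61 and 35 and 6 luminal progenitor markers. In 3 pubertal cells and 1 adult cell Epcam, Krt18, Krt5 and Krt14 were all at 0. Fibroblast markers were not confined to this class. All 22 cells with at least 3 fibroblast markers, classed or not, were positive for Cd34, and 0 of the 268 cells without Cd34 had as many, which allows a share of up to 1.12%. Such marker counts were found in 15 of 58 cells positive for Cd55 (25.9%) against 7 of 265 others (2.64%), in 12 of 22 positive for Procr, in 19 of 122 positive for Axl, in 14 of 68 positive for Lrp1, in 10 of 49 positive for Aldh1a3, and in 1 of 76 positive for Tspan8 and 0 of 61 positive for Lgr5 (up to 4.92%). The summed fibroblast list ranged from 0 to 48520 CPM in Cd55-positive cells with a median of 20 CPM, was 0 in 17 of them, and ranged from 0 to 40810 CPM in the other cells with a median of 10 CPM. Col1a1, Dcn and Pdgfra had reads in 16, 29 and 7 of the 58 Cd55-positive cells and in 27, 80 and 2 of the 265 others. The part of these cells and transcripts in the values of the 10 genes was not tested.

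At the higher bar of 40 RPKM without thinning, 29 cells passed for Cd55. Of these, 8 were fibroblast-marker cells, 8 luminal progenitor-marker, 4 mature luminal-marker and 3 basal-marker cells, and 6 were not classed. That is 8 of 11 fibroblast-marker cells, 8 of 30 luminal progenitor-marker and 3 of 130 basal-marker cells. At this bar Cd34 passed in 16 pubertal and 12 adult cells, Tspan8 in 16 and 21, Axl in 19 and 18, Lrp1 in 3 and 1, and Lgr5 in 2 and 15.

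**Figure D3:**
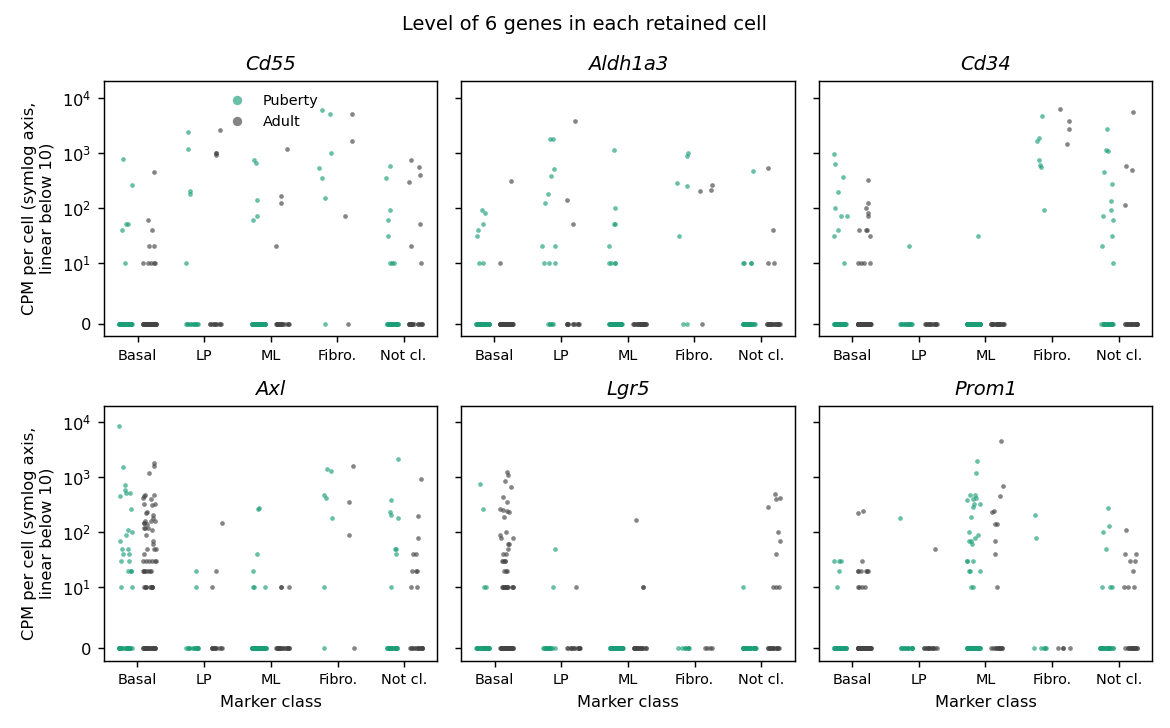
Level of 6 genes in each retained cell (CPM, y axis, logarithmic above 10 and linear below) by marker class (LP, luminal progenitor; ML, mature luminal; Fibro., fibroblast; Not cl., not classed), with pubertal cells in green and adult cells in grey. Each point is 1 cell; most cells lie at 0, and the 11 fibroblast-marker cells carry the highest Cd55 and Cd34 values.

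The comparison of stages was repeated inside the classes, since the 2 stages held different mixtures. Among basal-marker cells Lgr5 was positive in 4 of 45 at puberty (8.89%, 2.48 to 21.2%) and in 40 of 85 at the adult stage (47.1%, 36.1 to 58.2%). The adult share was 34 of 70 inside the Rn7sk run (48.6%, 36.4 to 60.8%) and 6 of 15 outside (40.0%, 16.3 to 67.7%), so that both sets lay above puberty, though the interval of the smaller set overlapped that of puberty. Mean levels in basal-marker cells were 23.1 CPM in puberty, 73.0 CPM inside the run and 111 CPM outside, where 1 of the 15 cells held 52.1% of the read pairs and the mean was 57.1 CPM without it. Basal-marker cells were positive for Tspan8 in 8 of 45 cases in puberty (17.8%, 8.00 to 32.1%) and in 32 of 85 in the adult (37.6%, 27.4 to 48.8%). Unlike Lgr5, this share was 42.9% inside the run and 13.3% outside. Axl was positive in 51.1% of pubertal basal-marker cells, 70.0% of those inside the run and 40.0% outside.

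Aldh1a3 differed in the luminal progenitor-marker class. It was positive in 11 of 16 at puberty (68.8%, 41.3 to 89.0%) and in 3 of 14 at the adult stage (21.4%, 4.66 to 50.8%), intervals that overlapped. The adult cells were 1 of 9 inside the run and 2 of 5 outside. Mean levels were 298 CPM and 282 CPM, and 1 adult cell stood at 3760 CPM. In mature luminal-marker cells it was positive in 9 of 69 pubertal and 0 of 22 adult cells (up to 13.6%), and in basal-marker cells in 7 of 45 and 2 of 85. Cd55 in luminal progenitor-marker cells was positive in 5 of 16 pubertal and 4 of 14 adult cells, Tspan8 in 8 of 16 and 7 of 14. Prom1 in mature luminal-marker cells was positive in 25 of 69 cases at puberty (36.2%, 25.0 to 48.7%) and in 10 of 22 at the adult stage (45.5%, 24.4 to 67.8%), which were 1 of 8 inside the run and 9 of 14 outside.

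**Figure D4:**
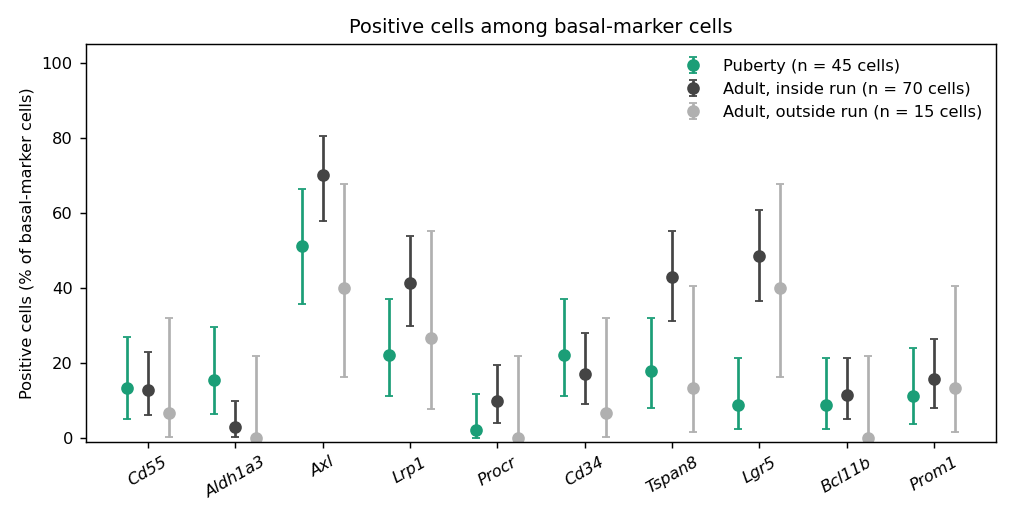
Share of basal-marker cells positive for each gene (%, y axis) in 45 pubertal cells (green), 70 adult cells inside the Rn7sk run (dark grey) and 15 adult cells outside it (light grey). Bars are exact 95% binomial intervals, which cover counting error only; Lgr5 lay at 8.89%, 48.6% and 40.0%.

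Overlap between the genes was then counted, to ask whether they mark the same cells. The number of cells positive for both genes of a pair was set against the number expected if they were independent within each stage, and a pair was counted as found together where this ratio was at least 1.5 with at least 5 cells. Of the 45 pairs, 16 passed; 6 pairs had under 5 cells. In 12 of the 16 the call also held in a second random draw and without thinning. The pairs that did not hold there were Cd55 with Aldh1a3, and Axl with Aldh1a3, Cd34 and Bcl11b. With the expected number computed separately for adult cells inside and outside the Rn7sk run, 14 of the 16 passed, and Axl with Bcl11b and Tspan8 with Lgr5 (1.42) fell short. The median ratio of the 45 pairs was 1.30.

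Procr and Cd34 overlapped most. Both were found in 15 cells where 3.69 were expected, a ratio of 4.07, and these were 68.2% of the cells positive for Procr and 27.3% of those positive for Cd34. Fibroblast markers were frequent in them: 4 of the 15 were fibroblast-marker cells, and 12 had at least 3 fibroblast markers. The adult cells with both bore the title numbers 14, 23, 174, 180, 181, 182, 186, 187, 188 and 190. Most of these numbers lie close together, and the reason was not tested. Without the 15 cells of fibroblast, endothelial, pericyte, immune and Schwann classes the ratio was 4.48 over 10 cells, but of the 22 cells with at least 3 fibroblast markers 11 lay in none of these classes. Without all 22 the pair was left with 3 cells (ratio 2.66), under the 5 asked for. Procr passed with 5 of the 9 other genes, where 12.2% of the 9770 genes detected in at least 5% of cells passed with it. This background was not matched for how often a gene was detected. It includes genes found in nearly all cells, which cannot reach a ratio of 1.5. The 2 numbers are therefore not like for like, here and for the other backgrounds of pairs below. Cd34 passed with 5 as well, against 9.95% of genes. Besides Procr these were Cd55 (20 cells, ratio 2.03), Lrp1 (21 cells, 1.88), Bcl11b (6 cells, 1.77) and Axl (31 cells, 1.54).

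Cd55 passed with 3 genes, against a background of 6.62% of genes. It was found with Procr in 9 cells where 3.96 were expected (ratio 2.27), with Aldh1a3 in 18 cells (2.07) and with Cd34 in 20 cells (2.03). Of these cells 4, 8 and 9 were fibroblast-marker cells, and without them and the other non-epithelial classes the ratios were 1.83 over 5 cells, 1.59 over 10 cells and 1.70 over 11 cells. Without the 22 cells with at least 3 fibroblast markers they were 1.43 over 2 cells, 1.54 over 8 cells and 1.09 over 5 cells. Cd55 and Axl shared 32 cells, 55.2% of the cells positive for Cd55, at a ratio of 1.45 that fell short of the bar. Cd55 and Lgr5 shared 8 cells where 11.2 were expected (0.72).

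Aldh1a3 and Tspan8 were another overlapping pair. They were found together in 22 cells where 10.1 were expected (ratio 2.17), 18 of them pubertal, and 1 of them a fibroblast-marker cell, with a ratio of 2.45 without the non-epithelial classes. The pair did not stand apart from the other genes. Aldh1a3 also passed with Procr (ratio 2.57), Cd55 (2.07) and Axl (1.54), and Tspan8 with Lgr5 (1.59). Aldh1a3 passed with 4 genes against a background of 8.93%, Tspan8 with 2 against 11.9%, Axl with 4 against 6.35% and Lrp1 with 3 against 6.04%. The cells shared by Tspan8 and Cd34 were 3, where 12.6 were expected (0.24).

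Lgr5 was found with Bcl11b in 9 cells where 3.96 were expected (ratio 2.27) and with Tspan8 in 28 cells (1.59, or 1.42 by run), 27 of them adult. These 2 partners compare with 15.4% of all genes. With Procr it shared 1 cell where 4.67 were expected (0.21). Bcl11b passed with 4 genes against a background of 20.2%, and its positive cells had a median of 3471 genes against 2718 in the other cells. Prom1 passed with none, where 11.5% of genes did. Cells positive for Lgr5 also had more genes detected, with a median of 3188 against 2694, as did those positive for Prom1 (3176 against 2627) and Tspan8 (3146 against 2704), whereas for Cd55 the medians were 2822 and 2730 and for Cd34 2733 and 2731.

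**Figure D5:**
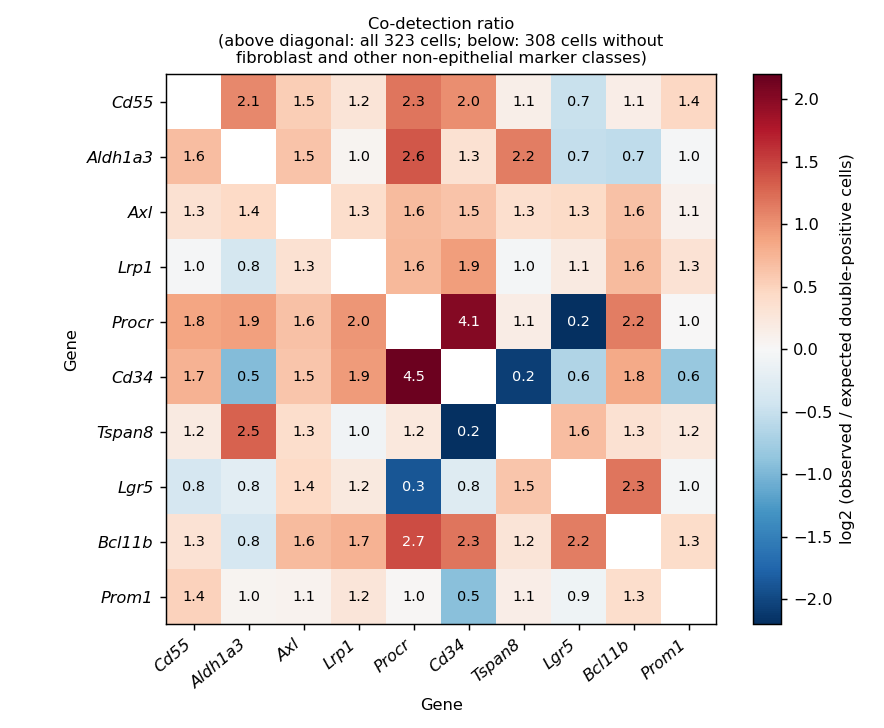
Ratio of observed to expected double-positive cells for the 45 pairs (numbers; colour on a log2 scale, red above 1 and blue below). Values above the diagonal are from all 323 cells and those below it from the 308 cells left without the fibroblast, endothelial, pericyte, immune and Schwann classes; Procr with Cd34 is highest in both, at 4.07 and 4.48.

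Fewer pairs passed within classes. With the expected number computed within each stage and class, 6 of the 45 pairs passed: Aldh1a3 with Procr (ratio 1.53) and with Tspan8 (1.76), Procr with Cd34 (1.78), Cd34 with Bcl11b (1.62), Lgr5 with Bcl11b (1.71) and Bcl11b with Prom1 (1.70). Cd55 passed with none, and its ratios within classes were 1.41 with Procr, 1.22 with Cd34 and 1.20 with Aldh1a3. Bcl11b with Prom1 was not among the 16. Leaving out the non-epithelial classes alone kept 14 of the 16 pairs. Leaving out the 22 cells with at least 3 fibroblast markers kept 5: Cd55 with Aldh1a3, Aldh1a3 with Tspan8, Bcl11b with Axl, with Lrp1 and with Lgr5. Procr with Tspan8 was new there (5 cells, ratio 2.09). The share of all genes that pass was computed for the first rule only, so these counts have no background beside them.

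A cell was positive for a median of 2 of the 10 genes, and 67 of 323 cells were positive for none. At least 5 genes were found in 24 cells (7.43%), 9 pubertal and 15 adult. Of these 24, 8 were fibroblast-marker cells, 11 basal-marker cells, 1 a luminal progenitor-marker cell and 4 not classed. That was 8 of 11 fibroblast-marker cells, 11 of 130 basal-marker cells and 0 of 91 mature luminal-marker cells (up to 3.30%). The 2 cells with the most, 8 genes each, were a fibroblast-marker cell and a cell that was not classed. No cell was positive for 9 or 10.

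The genes whose level over the 323 cells was most like that of each gene were sought by Pearson correlation of log2(CPM + 1) and named from r of 0.4. These correlations describe cells that share capture runs and depth. Cd34 was most like Col3a1 (r = 0.72), Mfap5 (0.70) and Efemp1 (0.68), genes of the extracellular matrix, the first pair of them in the fibroblast list. Procr was most like Ddr2, a collagen receptor (0.68), Efemp1 (0.61) and Serping1, the C1 inhibitor (0.60). Cd55 was most like Igfbp6 (0.50), Ifi205 (0.49) and Fndc1 (0.49), and these values were 0.24, 0.24 and 0.24 without the 15 non-epithelial-class cells, whereas those of Procr were 0.71, 0.66 and 0.65. Without the 22 cells with at least 3 fibroblast markers the values of Cd55 were 0.08, 0.11 and −0.03. Those of Procr were then 0.36, 0.26 and 0.38 and those of Cd34 0.27, 0.06 and 0.13. Aldh1a3 was most like Adgrd1 (0.42), Htra3 (0.41) and Tmem100 (0.41). These were 0.15, 0.15 and 0.13 without the 15 non-epithelial-class cells and 0.03, 0.10 and 0.01 without the 22.

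Axl was most like Fstl1 (0.52), Vim (0.50) and Timp3 (0.47). These were 0.49, 0.49 and 0.45 without the non-epithelial-class cells, and 0.44, 0.44 and 0.39 without the cells with at least 3 fibroblast markers. Lgr5 was most like Ltbp2, a latent TGF-β-binding protein of the matrix (0.49), the calcium channel subunit Cacna2d1 (0.46) and the sodium channel Scn8a (0.46). These were 0.48, 0.49 and 0.50 after the first removal and 0.50, 0.53 and 0.45 after the second. For Lrp1, Tspan8, Bcl11b and Prom1 no gene reached r of 0.4.

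Genes that work with the 10 were taken from 9 fixed lists of 56 genes, of which 39 reached 10 CPM. Of these 39, 7 were at least 2-fold higher in puberty and 8 at least 2-fold higher in the adult, or 17.9% and 20.5%, where 22.3% and 15.6% of all genes were. Stage values of partner genes were not repeated within the marker classes. Mature luminal-marker cells made up 40.4% of pubertal and 14.5% of adult cells, and basal-marker cells 26.3% and 55.9%. The part of this mixture in the partner ratios was not tested. Among 8 partners of Lgr5, 4 could be compared, and 2 stood in each direction. The related receptor Lgr4 was found in 83.6% and 77.6% of pubertal and adult cells, at 748 and 310 CPM (log2 ratio 1.27), and Znrf3, a ubiquitin ligase that removes Wnt receptors, in 53.2% and 32.2%, at 168 and 46.9 CPM (1.82). Lgr6, another receptor of the family, was instead higher in the adult, 48.9 CPM against 0.234 CPM, and detected in 13.2% against 1.75% of cells, with 58.9% of its adult reads in 1 cell. Rnf43, the paralog of Znrf3, stood at 4.80 and 20.5 CPM, with 72.1% of the adult reads in 1 cell. R-spondins were rarely detected: Rspo2 had no thinned reads and Rspo1 was detected in 4.61% of adult cells.

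Both ligands of Axl were detected. Gas6 stood at 20.1 and 62.7 CPM at the pubertal and adult stage (log2 ratio −1.59), and its shares of cells were 9.36% and 28.3%, with 54.7% of the adult reads in 1 cell. It was found in 30.8% of basal-marker and 23.3% of luminal progenitor-marker cells. Pros1, the other ligand, was detected in 24.6% and 46.7% of cells, in 66.9% of basal-marker and in 6.67% of luminal progenitor-marker cells. The related kinases Tyro3 and Mertk were each detected in under 2% of cells of either stage. Of 7 partners of Lrp1, Apoe, a ligand, was detected in all 130 basal-marker cells and stood at 702 and 2300 CPM (log2 ratio −1.71).

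Of 7 complement regulators besides Cd55, Cd59a was the one detected in most adult cells, 32.2% in puberty and 45.4% in the adult, at 88.2 and 231 CPM (log2 ratio −1.38). It was positive in 52.3% of basal-marker cells and in 0 of the 11 fibroblast-marker cells. Cr1l was within 2-fold between the stages. Serping1 was positive in 90.9% of fibroblast-marker cells and 7.69% of basal-marker cells. Among 14 retinoid genes, Dhrs3, a retinal reductase, stood at 366 and 157 CPM (log2 ratio 1.22). Aldh1a1, the relative of Aldh1a3, was found in 4.68% and 0.658% of pubertal and adult cells.

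Of 5 partners of Procr, Thbd, thrombomodulin, was positive in 72.7% of the fibroblast-marker cells and 3.85% of basal-marker cells. F3, tissue factor, was found in 57.3% and 61.8% of pubertal and adult cells and was highest in mature luminal-marker cells, at a mean of 931 CPM. Of 7 other tetraspanins, Tspan1 was higher in puberty, 412 against 127 CPM (log2 ratio 1.69), and detected in 79.1% of mature luminal-marker cells, whereas Cd9 was detected in 96.5% and 99.3% of cells. Prom2, the paralog of Prom1, was detected in 22.8% and 29.6% of cells and was within 2-fold. Podxl, a sialomucin related to Cd34, was detected in 25.7% and 19.1% of cells and in 44.0% of mature luminal-marker cells, but in none of the 11 fibroblast-marker cells.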

How the data were processed

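Each cell has its own deposited table of raw gene counts, in read pairs. Per the study's methods and the labels, the authors aligned read pairs to mm10 with Subread and counted them with featureCounts on the RefSeq annotation built into Rsubread; versions and strand are not given in the sources used here. Libraries were made with Nextera XT and carried no molecular identifiers. Of 27179 identifiers, 25275 matched RefSeq genes of GRCm38.p6; unmatched identifiers (1.84% of read pairs), 15 mitochondrial (13.9%) and 124 ribosomal protein (2.95%) genes were dropped. A combined table held the same counts and was not used.

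Cells were filtered, thinned (random seed 1) and classed as described with the results, and no doublet caller was run, since captured cells had been checked under a microscope. The study kept more cells of these stages than passed the same minimums here. Shares carry exact Clopper-Pearson intervals and sums exact Poisson intervals, both at 95%, and a count of 0 the limit of 3 cells of the total. Each stage was 1 sample, so there was no test and no p-value. Stage ratios used the summed thinned counts with a prior of 1 CPM, at 10 CPM or more in 1 stage. Values came from Python 3.11.15, numpy 2.4.6, pandas 2.3.3 and scipy 1.17.1, and TMM factors from edgeR 4.0.16. The steps were checked on simulated counts with known changes. All 10 genes are named; a partner gene is given values if past 2-fold between stages or detected in 20% of the cells of 1 stage, and the few outside this rule were chosen after their values were seen. Values of some partner genes that meet this rule are not reported here. The genes and lists were chosen with earlier results of these data known. Alternatives tried were another bar for positive cells, no thinning, another seed, stricter and looser cell filters, another prior, TMM, leaving out the highest cell, other class rules, leaving out cells with fibroblast markers, and the adult cells inside or outside the Rn7sk run.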

Additional observations from a re-analysis of the deposited data

Results flagged for a closer look

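Of the 121 cells below the minimums on read pairs and genes, which entered no comparison, 57 had at least 1 read pair on any of the 10 genes. The most frequent there was Axl, in 24 of the 121 cells, followed by Lgr5 in 19, Tspan8 in 18, Lrp1 in 16 and Cd55 in 12. These cells differ in depth and were not thinned.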

How the results depend on the processing

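No paired analysis was possible because the numbers in the titles only name cells and no test was run. Of 273 alternative values for 41 results, 208 stayed within the counting interval, the 1.5-fold margin or the side of the 2-fold bar. Lgr5 and Procr, past 2-fold with all cells, kept their sign in each of these alternative values. In a further setting, without the highest adult cell outside the run, the Procr ratio against the cells there turned to 1.03, with both levels under 10 CPM. Among the other genes 4 log2 ratios changed sign and ended past 2-fold. They were Cd55 (−1.01) and Bcl11b (2.01, under 10 CPM) against adult cells outside the run, and Cd34 (1.15) and Prom1 (2.65) against those inside. Asking for 10 of 100000 read pairs gave 9.94% and 9.21% of pubertal and adult cells positive for Cd55 and 1.17% and 11.8% for Lgr5, and 10 pairs found together. Any read without thinning gave 25.7% for Cd55 and 50.7% for Lgr5 in the adult. The looser cell filter, thinned to 50000 read pairs, gave 27.6% for Lgr5 in the adult; inside the Rn7sk run it was 44.0% and outside 14.0%. At 40 RPKM Cd55 passed in 9.36% of pubertal and 8.55% of adult cells, against 17.5% and 18.4% with 1 thinned read pair. Expected numbers within stage and class gave 6 pairs, of which Bcl11b with Prom1 had not passed before. Leaving out the cells with at least 3 fibroblast markers also gave 6, of which Procr with Tspan8 had not. The share of all genes that pass was not computed for these pair counts.

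Genes at least 2-fold higher in puberty numbered 1 without the highest cell of each stage (Aldh1a3), 1 with the stricter cell filter (Lrp1), 3 against adult cells inside the run (Cd55, Cd34 and Prom1) and 2 against those outside (Aldh1a3 and Axl). Genes at least 2-fold lower in puberty numbered 1 with a prior of 10 CPM (Lgr5), 3 against adult cells inside the run (Lgr5, Procr and Tspan8), 4 against those outside (Lgr5, Cd55, Cd34 and Prom1) and 1 without the non-epithelial classes (Lgr5), an alternative chosen after seeing the data, as were the second draw, the expected numbers by run and the removal of cells by fibroblast markers for pairs. Without the highest cell outside the run, and with all pubertal cells kept, the ratios of Prom1 and Cd55 were −0.16 and −0.11. The cause of these moves was not tested. The log2 ratio of Lgr5 ranged from −4.07 to −2.05 over the alternative values counted above. Against adult cells outside the run without their highest cell it was −1.42. The median ratio of all genes compared moved from 0.11 to −0.02 with TMM, 0.26 without the highest cells, 0.23 inside and 0.35 outside the run.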
